A study of Mus musculus with 3 samples.

Results

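Amino acid transporter genes were described across 3 Affymetrix whole-transcript arrays of BMDC, the dendritic cells that grow from cultured mouse bone marrow. The genes were chosen by symbol, as those whose name begins with Slc1a, Slc3a, Slc6a, Slc7a, Slc36a, Slc38a or Slc43a, and a gene with several probe sets is represented by the one of highest mean. A probe set is the group of probes that reports 1 transcript region, and 66 probe sets naming a single gene gave 64 genes of the 19938 genes measured. The 3 samples form 1 group: marrow cells of C57BL/6J mice, with no engineered allele named, seeded at 2000000 cells in a well and grown over 9 days with 20 ng/ml of murine GM-CSF plus 20 ng/ml of murine IL-4. No untreated culture, earlier time or other cytokine was compared, so the data describe levels and differences between arrays and allow no test between conditions. The labels name no sort of the cultures, and separate mice or wells are not stated for the samples, so any spread given here may be technical.

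Marker genes bore out the cell type in the label in part. Of 17 measured dendritic cell and macrophage markers 16 were above background, the integrin gene Itgax and the class II gene H2-Aa among them, whereas the receptor gene Flt3 was not. This list does not separate dendritic cells from macrophages. The macrophage markers Csf1r, Adgre1 and Mrc1 passed too, and the dendritic cell marker Zbtb46 passed at 6.36 in each array. Above background here means that a gene passed, array by array, the 95th percentile of 1210 olfactory and vomeronasal receptor probe sets, which was 5.54, 5.54 and 5.55 log2 units in replicates 1, 2 and 3. The limit is permissive: 7 of 34 measured genes of unrelated tissues such as liver, muscle and brain (20.6%) passed it. Markers of other cells passed the same limit in part, namely 7 of 10 NK cell, 8 of 10 T cell, 3 of 8 mast cell and basophil, 4 of 10 neutrophil and 2 of 5 B cell markers. Stromal markers passed in 5 of 10 cases and erythroid and megakaryocyte markers in 4 of 7. The share over all genes was 60.5%, so these counts alone do not show that such cells were present. The NK receptor genes Ncr1, Klrd1 and Klrk1 and the B cell gene Ms4a1 did not pass. Another NK receptor gene, Klrb1c, passed with 6.51, 6.45 and 5.94, as did the B cell genes Cd79b and Pax5. In such bulk RNA, fewer cells of a type and less RNA per cell cannot be told apart. Across probe sets, which are not independent of each other, the pairs of arrays had a Pearson's r between 0.994 and 0.996.

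Cells take up amino acids through carriers that differ in the substrates they accept and in what drives them. Light chains of the Slc7 family pair with a heavy chain of the Slc3 family, which brings them to the surface, and exchange an amino acid outside for one inside. Sodium-coupled carriers of the Slc1, Slc6 and Slc38 families accumulate their substrates. Slc36 carriers, some of them proton-coupled, work on endosomes and lysosomes or at the surface, and cationic Slc7 carriers import arginine and lysine. In macrophages and dendritic cells, arginine feeds arginase and inducible nitric oxide synthase, and cystine feeds glutathione. When amino acids run short, the kinase GCN2 raises the transcription factor ATF4, which is known to induce several of these carriers, Slc7a5, Slc3a2, Slc7a11, Slc7a1, Slc38a2, Slc6a9 and Slc1a5 among them.

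Every array placed 36 of the 64 genes (56.2%) above background, no array did so for 27, and Slc1a2 passed in replicates 1 and 2. Among all 19938 genes the share was 60.5%, so the transporters were detected about as often as genes in general. With a stricter limit at the 99th percentile 25 of the 64 remained above, against 46.2% of all genes, and the values of the 11 that dropped out lay between 5.69 and 6.33. Levels of different probe sets depend on how well each binds and are not compared here, so each gene is set only against the limit and against itself in the other arrays. Replicate values are log2 expression as deposited. Where a gene is called flat or even, its deposited values were close or identical, which can hide a change.

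**Figure D1:**
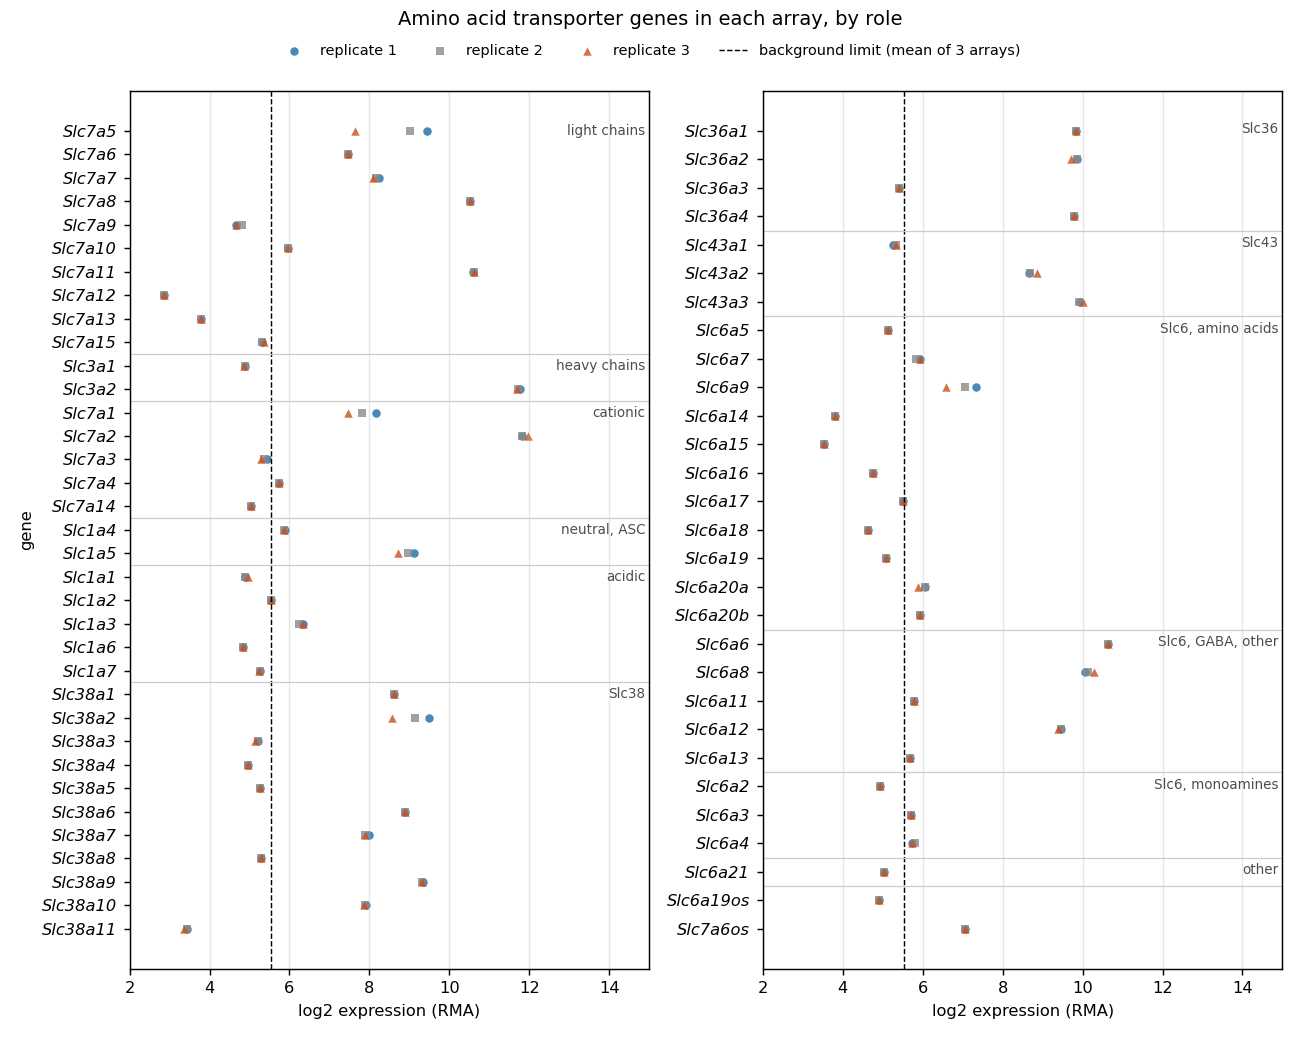
Log2 expression (x axis) of the 64 genes (y axis, grouped by transporter role), with 1 symbol per array and the background limit as a dashed line. In 50 of the 64 genes the 3 symbols lie within 0.1 log2 units, 31 of them at a single value, whereas Slc7a5, Slc38a2, Slc6a9 and Slc7a1 have replicate 1 on the right and replicate 3 on the left.

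The surface exchangers built on the heavy chain Slc3a2 were detected with most of their known partners. Slc3a2, the 4F2 heavy chain or CD98, had 11.78, 11.72 and 11.69 in replicates 1, 2 and 3, a mean of 11.73 ± 0.04 (SD, n = 3). Its counterpart Slc3a1, the heavy chain of kidney and gut, lay below background at 4.88, as did the light chain that pairs with it there, Slc7a9, at 4.71 ± 0.09 (SD, n = 3). Slc7a11, the light chain xCT that imports cystine in exchange for glutamate, had 10.58, 10.60 and 10.60. Slc7a8, the light chain LAT2 for neutral amino acids, had 10.52 in each array. Both were thus flat over the arrays, as was the heavy chain.

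Slc7a5 was not. This light chain, LAT1, exchanges leucine and other large neutral amino acids, and its values were 9.43 in replicate 1, 9.01 in replicate 2 and 7.63 in replicate 3. Replicate 3 was the low array, 1.38 log2 units below replicate 2, while replicates 1 and 2 were 0.42 apart. The mean was 8.69 ± 0.94 (SD, n = 3), and the highest and lowest array differed by 1.80 log2 units or 3.49-fold. Among the 12068 genes above background, 5 had a span over the arrays at least this large, Slc7a5 included (0.0414%). Genes that fell below the limit in any array are not counted there, whatever their span. Some of those had larger spans, such as the stromal gene Lox (3.11) and the neutrophil gene Lcn2 (2.85).

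The remaining light chains varied little. Slc7a7, which exports cationic amino acids in exchange for neutral ones and is mutated in lysinuric protein intolerance, had 8.24, 8.16 and 8.09. Its close relative Slc7a6 had 7.47 in each array. Slc7a10, a carrier of small neutral amino acids, had 5.95 in each array, above the limit but below the stricter one. Slc7a12, Slc7a13 and Slc7a15 were below background at 2.87, 3.80 and 5.32, so 6 of the 10 measured light chain genes were detected.

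Cationic carriers split by gene. Slc7a2, the arginine carrier CAT2 of activated and IL-4-treated macrophages, had 11.80, 11.81 and 11.96 in replicates 1, 2 and 3 (mean 11.86 ± 0.09, SD, n = 3), with replicate 3 a little above the other arrays. Slc7a1, the widely expressed arginine carrier CAT1, went the other way with 8.17, 7.82 and 7.45. Replicate 1 was its high array and replicate 3 its low one, and its mean was 7.82 ± 0.36 (SD, n = 3), a span of 0.72 log2 units or 1.65-fold. Slc7a4, a relative with no settled substrate, lay at 5.74 in each array, close to the limit, and Slc7a3 (5.36 ± 0.07, SD, n = 3) and Slc7a14 (5.03) lay below it.

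Both carriers of the neutral Slc1 branch were above background, whereas those for glutamate were largely not. Slc1a5, the glutamine exchanger ASCT2, had 9.11, 8.95 and 8.72 (mean 8.93 ± 0.20, SD, n = 3), with replicate 3 again the low array and a span of 0.39 log2 units. Slc1a4, the exchanger ASCT1 for alanine, serine and cysteine, had 5.88, 5.87 and 5.87, near the limit. Of 5 glutamate carriers, Slc1a3 passed at 6.33, 6.23 and 6.33, and Slc1a2 had 5.55 in each array, which passed the limit in replicates 1 and 2 only. Slc1a1, Slc1a6 and Slc1a7 lay below it at 4.91, 4.83 and 5.25.

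In the Slc38 family of sodium-coupled neutral carriers, 6 of 11 genes were detected and 1 differed clearly between arrays. Slc38a2, the alanine and glutamine carrier SNAT2, whose transcript is known to rise when amino acids are withdrawn, had 9.48 in replicate 1, 9.13 in replicate 2 and 8.56 in replicate 3. Its mean was 9.06 ± 0.47 (SD, n = 3) and its span 0.92 log2 units or 1.90-fold. Slc38a1, its next neighbour on chromosome 15 in the GRCm38.p6 gene order and a carrier of overlapping substrates, had 8.62 in each array. Slc38a4, the neighbour on the other side, lay below background at 4.97. The 3 adjacent genes therefore gave 1 gene that varied, 1 with identical deposited values and 1 not detected. Identical values were found in 44.8% of all probe sets and do not show that a level was unchanged. A second probe set of Slc38a1 also gave a single value, 6.24, in all arrays.

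Carriers of this family that act on lysosomes were detected at even levels. Slc38a9, the lysosomal arginine sensor that reports to the kinase complex mTORC1, had 9.35, 9.31 and 9.31, with a second probe set at 6.97 in each array. Slc38a7, which releases glutamine from lysosomes, had 7.99, 7.89 and 7.89. Less studied members followed the same pattern, Slc38a6 at 8.90 in each array and Slc38a10 at 7.90, 7.88 and 7.87. Below background were Slc38a3, Slc38a4, Slc38a5, Slc38a8 and Slc38a11, with means from 3.42 to 5.28.

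In the Slc36 family, 3 of 4 genes were detected, also above the stricter limit. Slc36a1, the lysosomal carrier PAT1, had 9.84, 9.85 and 9.83. Slc36a4 had 9.78 in each array, and Slc36a2 had 9.86, 9.86 and 9.71. Slc36a3, which lies beside Slc36a2 on chromosome 11, was below background at 5.40. In the Slc43 family, Slc43a2, the carrier LAT4 for branched-chain amino acids and phenylalanine, had 8.66, 8.70 and 8.85, and Slc43a3, a relative that takes up purine bases and no amino acid, had 9.94 and 9.91 in replicates 1 and 2 and lay 0.06 log2 units higher in replicate 3 than in replicate 1. Slc43a1, or LAT3, lay below background at 5.31 ± 0.05 (SD, n = 3). Both detected Slc43 genes had replicate 3 as their high array, by small amounts.

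The Slc6 family holds carriers of neurotransmitters, osmolytes and creatine as well as amino acids, and 11 of its 20 measured transporter genes were detected. Slc6a9, the glycine carrier GlyT1, had 7.33 in replicate 1, 7.05 in replicate 2 and 6.57 in replicate 3, a mean of 6.98 ± 0.38 (SD, n = 3) and a span of 0.76 log2 units or 1.69-fold. Again replicate 1 was high and replicate 3 low. Slc6a6, the taurine carrier, had 10.63 in each array. Slc6a12, which takes up betaine and GABA, had 9.46, 9.46 and 9.39. Slc6a8, the creatine carrier, had 10.05, 10.15 and 10.28, and so was highest in replicate 3, with a span of 0.23 log2 units.

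The other 7 detected Slc6 genes had their array nearest the limit within 0.5 log2 units of it, and none was above the stricter limit in every array. They were the GABA carrier genes Slc6a11 (5.78) and Slc6a13 (5.69), the dopamine carrier gene Slc6a3 (5.71) and the serotonin carrier gene Slc6a4 (5.75 ± 0.04, SD, n = 3). The proline carrier gene Slc6a7 (5.90 ± 0.05, SD, n = 3) and the paralogs Slc6a20a (5.99 ± 0.10, SD, n = 3) and Slc6a20b (5.92), which may share probe signal, completed them. Given the share of unrelated tissue genes that pass this limit, these calls carry little weight. Slc6a2, Slc6a5, Slc6a14, Slc6a15, Slc6a16, Slc6a17, Slc6a18, Slc6a19 and Slc6a21 were below background, with values between 3.53 and 5.50. The symbol rule also took 2 genes that are no transporters: Slc7a6os, a protein-coding neighbour of Slc7a6, had 7.06 in each array, and the opposite-strand transcript Slc6a19os was below background at 4.91.

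Large differences between arrays were thus found in few transporters. Of the 36 detected genes, 13 (36.1%) had a single value repeated in all arrays, against 46.5% of the 12068 genes above background. Another 10 had the same value in a pair of arrays and 13 had 3 different values. In 24 of the 36 genes the span was at most 0.1 log2 units, the 13 identical ones and 11 others. Of the 12068 genes above background, 5612 were identical and another 3532 had a span of up to 0.1. A span over 0.5 log2 units was reached by 4 of 36 genes (11.1%), Slc7a5, Slc38a2, Slc6a9 and Slc7a1, against 2.61% of all genes above background. All 4 were highest in replicate 1 and lowest in replicate 3. That order was common at this size, in 233 of the 315 genes above background with such a span. Size and order together were seen in 1.93% of all genes above background. The reverse order at that size occurred in 0.431% of all genes and in no transporter.

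Of the 23 detected transporters whose arrays were not identical, 12 (52.2%) were lowest in replicate 3, against 37.8% of all such genes, and 4 were highest there (17.4%), against 36.2%. Those highest in replicate 3 were Slc7a2, Slc6a8, Slc43a2 and Slc43a3. Without the 4 genes of large span, 8 of the other 19 (42.1%) were lowest in replicate 3, against 35.6% of all genes with a span of at most 0.5, and 4 (21.1%) were highest there, against 37.2%. The order of replicate 1 above 2 above 3 was found in 4 of these 19 (21.1%), Slc1a5, Slc7a7, Slc3a2 and Slc38a10, against 16.3% of all such genes. The shares lowest in replicate 3 and in this order were thus near those of all genes once the large spans were set aside. The median deviation of the 36 genes from their own mean was 0 in each array, as it was for all genes above background. Genes with identical arrays hold these medians at 0. Among the 23 transporters not identical, the median was 0.030, -0.004 and -0.024 in replicates 1, 2 and 3. For all such genes it was 0.0015, -2.2e-05 and -0.0017. With 1 group and 3 arrays no test of these shares was made, and they describe these arrays only.

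The low array decided the count. Without replicate 3 no transporter differed by more than 0.5 log2 units, against 0.224% of all genes above background. Without replicate 1, Slc7a5 and Slc38a2 did, against 1.24%. Without replicate 2 all 4 did, against 2.52%. In Slc7a5, Slc38a2 and Slc6a9 the larger step lay between replicates 2 and 3, whereas in Slc7a1 the steps were nearly equal at 0.35 and 0.37 log2 units.

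**Figure D2:**
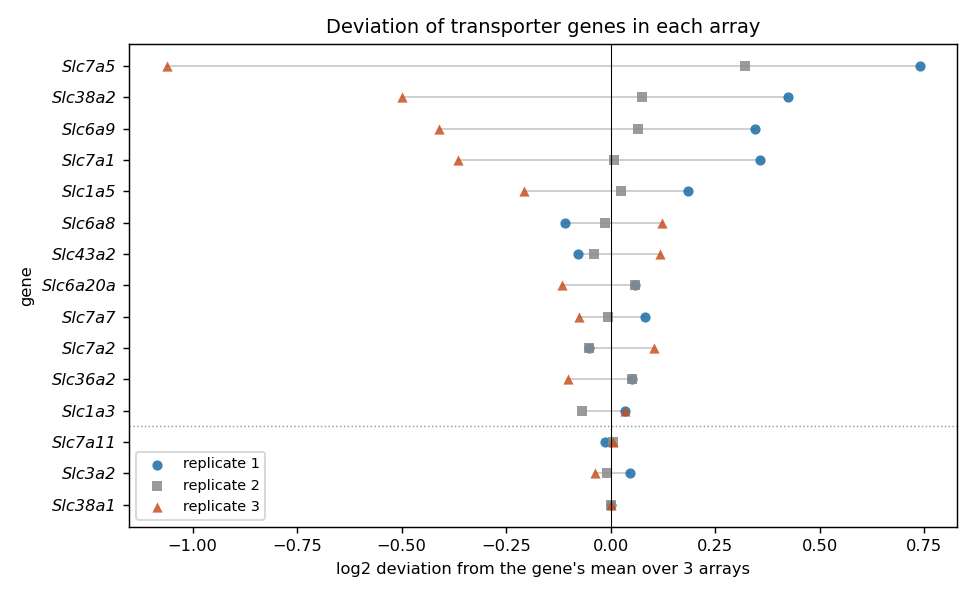
Deviation of each array from the gene's mean over the 3 arrays (x axis, log2 units) for the 12 detected transporters with a span over 0.1 and, under the dotted line, for Slc7a11, Slc3a2 and Slc38a1 (y axis). Slc7a5, Slc38a2, Slc6a9, Slc7a1 and Slc1a5 share the order of the arrays, and Slc6a8, Slc43a2 and Slc7a2 have replicate 3 on the right.

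**Figure D3:**
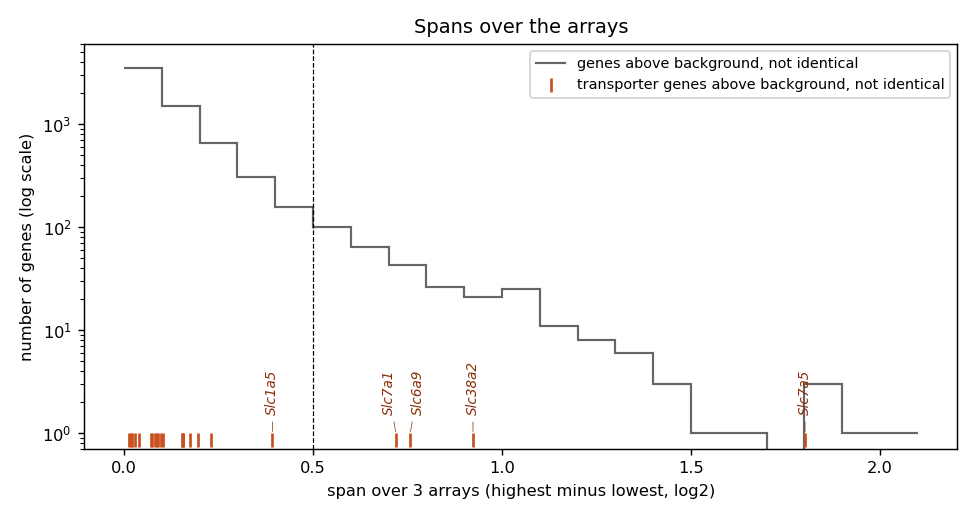
Span over the 3 arrays (x axis, log2 units) of genes above background that were not identical, as counts in bins of 0.1 (line, y axis on a log scale), with the 23 such transporters as ticks and the 0.5 threshold dashed. Slc7a5 lies at 1.80, where few genes are left, and 11 of the 23 lie at 0.1 or less.

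Upstream sequences are shown for the transporters with large spans that the RefSeq promoter table holds, and for Slc7a11, whose level was flat. Slc7a5, of the largest span, and Slc1a5 have no start in that table, so their upstream sequences were not searched. Of the 64 genes 47 matched that table by symbol, and 26 of these were detected. The motif sought was TGATGNAA, the core of the element bound by ATF4 with a C/EBP partner, on both strands and wholly within the 250 bases before a transcription start. Each sequence runs 5′ to 3′ on the gene's strand in build GRCm38.p6 and ends at the base before the start. Where a gene has several starts, the one farthest upstream is shown. Capitals mark the motif on either strand.
Slc38a2, chr15:96699729-96699978, strand minus: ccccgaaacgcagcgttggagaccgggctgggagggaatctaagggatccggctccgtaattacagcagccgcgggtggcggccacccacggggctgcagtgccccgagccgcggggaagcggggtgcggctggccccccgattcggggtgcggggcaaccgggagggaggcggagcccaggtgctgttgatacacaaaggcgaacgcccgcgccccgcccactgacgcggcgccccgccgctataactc
Slc7a1, chr5:148399905-148400154, strand minus: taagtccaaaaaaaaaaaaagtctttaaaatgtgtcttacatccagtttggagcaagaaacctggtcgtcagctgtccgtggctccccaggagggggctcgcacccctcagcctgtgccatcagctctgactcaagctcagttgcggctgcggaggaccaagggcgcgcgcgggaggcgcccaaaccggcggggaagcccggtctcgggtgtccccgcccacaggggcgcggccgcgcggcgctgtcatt
Slc6a9, chr4:117835008-117835257, strand plus: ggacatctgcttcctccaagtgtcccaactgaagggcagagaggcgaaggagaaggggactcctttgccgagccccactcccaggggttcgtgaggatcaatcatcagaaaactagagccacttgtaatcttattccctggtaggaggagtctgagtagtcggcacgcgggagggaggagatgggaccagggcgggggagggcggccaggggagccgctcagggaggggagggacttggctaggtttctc
Slc7a11, chr3:50443614-50443863, strand minus: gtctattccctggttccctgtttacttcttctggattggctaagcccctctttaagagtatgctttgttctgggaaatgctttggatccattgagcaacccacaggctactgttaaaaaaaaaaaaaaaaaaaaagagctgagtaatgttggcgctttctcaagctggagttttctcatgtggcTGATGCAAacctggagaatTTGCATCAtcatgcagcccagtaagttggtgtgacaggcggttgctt

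The first 3 sequences held no copy of the motif and the last held 2, facing each other. In Slc7a11 the first copy lay 66 to 59 bases before the start on the gene's strand and the second 47 to 40 bases before it on the opposite strand. Of 32851 windows of the same length in the table, 3.45% held at least 1 copy and 13 windows held 2 or more (0.0396%). Of the detected transporters in the table, 2 of 26 held the motif, Slc7a11 and Slc7a7, both of which had spans under 0.2 log2 units. Among all 27025 genes of the table, 3.91% held it before at least 1 start. Slc7a7, with 5 starts in the table, held it before 2 of them, 141 to 134 bases before one and 243 to 236 bases before another. The E-box CACGTG was found upstream of 3 of the 26, against 6.86% of all genes, and in 6.02% of all windows, but not in the sequences shown. Such a match is a description of these letters in this window.

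Among genes of the amino acid response outside the carriers, some had the same order of arrays and others were flat. Of 26 measured targets of ATF4, a list that includes Atf4 itself and enzymes of amino acid synthesis, 23 (88.5%) were above background. The share among all genes was 60.5%. Of these 23, 6 had a span over 0.5 log2 units, against 2.61% of all genes above background. All 6 were lowest in replicate 3. Of the 315 genes above background with such a span, 233 were lowest there and highest in replicate 1. Asns, which makes asparagine, had 8.88, 8.17 and 7.45. Shmt2, of mitochondrial serine breakdown, had 7.62, 7.35 and 6.53. Aldh18a1, of proline synthesis, had 7.75, 7.36 and 6.98. Replicate 3 was the low array in each, as it was in Slc7a5.

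The other 3 genes of that size were Phgdh, of serine synthesis, Chac1, which degrades glutathione, and the secreted glycoprotein gene Stc2. Phgdh had 6.71, 6.69 and 6.10, and Chac1 had 7.11, 6.86 and 6.56. Psat1, the next step after Phgdh, just missed the size at 8.23, 7.95 and 7.73. The transcripts of the regulators Atf4 and Ddit3 were flat, and ATF4 protein was not measured. Nupr1, of the same list, had 6.74, 6.39 and 6.33. Atf4 had 8.20, 8.17 and 8.19, and Ddit3, the partner known as CHOP, had 7.72 in each array, while Trib3, a pseudokinase, had 6.83, 6.59 and 6.59. The 23 genes had a median deviation of 0.04 log2 units in replicate 1, 0 in replicate 2 and -0.08 in replicate 3. The list thus held both genes that followed Slc7a5 and genes that did not, as did the carriers.

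Genes that sense amino acids for mTORC1, the kinase complex that switches on growth, were detected almost throughout and hardly varied. Of 37 measured genes 36 (97.3%) were above background, against 60.5% of all genes. None had a span over 0.5 log2 units, against 2.61% of all genes above background. Mtor had 8.02, 8.08 and 8.09. Fnip2, a partner of folliculin, had the widest span of the list with 9.36, 9.57 and 9.82, and Sesn2, the leucine sensor, which is also a target of ATF4, had 7.43, 7.43 and 7.32.

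Enzymes that use the imported amino acids gave a mixed picture. Of 33 measured, 28 (84.8%) were above background, against 60.5% of all genes. A span over 0.5 log2 units was found in 5 of these 28, against 2.61% of all genes above background. They were Kynu and Nos2 and, already counted at this size among the targets of ATF4, Asns, Shmt2 and Phgdh. Arg1, the arginase that competes for arginine, had 12.12 in each array. Nos2, the inducible nitric oxide synthase, had 11.47, 11.77 and 11.97, with replicate 3 the high array, as for the arginine carrier gene Slc7a2. Kynu, of tryptophan breakdown, had 9.88, 9.66 and 9.24, and Bcat1, which starts branched-chain breakdown, had 8.08, 8.15 and 8.48. Ido1 (5.57, 5.53 and 5.53) passed the limit in replicate 1 only, and Arg2 (5.70, 5.51 and 5.33) did so too. Asns, Shmt2, Phgdh, Psat1, Gpt2, Cbs and Cth are counted here and among the targets of ATF4.

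Carriers of amino acids and peptides in other families were detected in 18 of 24 cases (75%), against 60.5% of all genes. None had a span over 0.5 log2 units, against 2.61% of all genes above background. Slc15a3, a lysosomal carrier of histidine and peptides, had 11.48 in each array after rounding. Ctns, which releases cystine from lysosomes, had 8.60, 8.47 and 8.50. Slc15a2, a peptide carrier of the cell surface, had 6.18, 6.18 and 5.76, the widest span of this list. The vesicular glutamate carrier genes Slc17a6, Slc17a7 and Slc17a8 were below background.

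**Figure D4:**
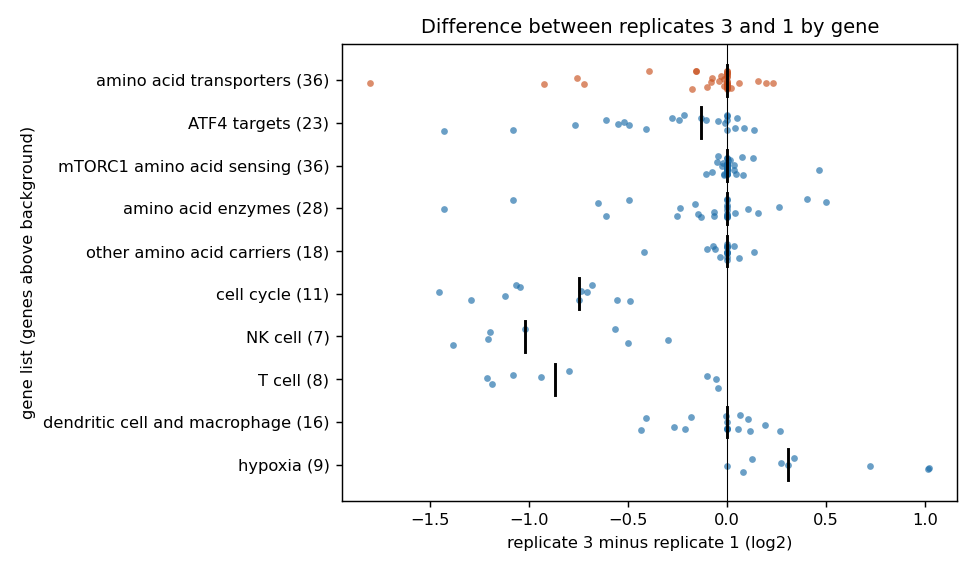
Difference of replicate 3 minus replicate 1 (x axis, log2 units) for each gene above background in the transporter set and in 9 gene lists (y axis, number of genes in parentheses), with the median as a bar. Of the 36 transporters 16 lie at 0, 15 below it, down to -1.80, and 5 above it, all cell cycle, NK and T cell genes lie below 0, and no hypoxia gene does.

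Other gene groups differed between the same arrays. All 11 measured cell cycle genes were lowest in replicate 3, against 37.8% of all genes above background and not identical. Their median deviation was 0.33, 0.11 and -0.43 log2 units, and Ccna2, the cyclin of DNA synthesis, had 8.19, 7.82 and 6.74. All 7 detected NK cell genes and 7 of 8 detected T cell genes were lowest in replicate 3 as well, with median deviations there of -0.60 and -0.46. The summed linear level of the 10 NK markers, on the log2 scale, was 12.42, 12.07 and 11.29, and that of the 10 T cell markers 11.13, 10.76 and 10.24. Mast cell and basophil markers summed to 9.53, 9.73 and 8.49, neutrophil markers to 9.69, 9.39 and 8.66 and stromal markers to 10.72, 9.59 and 9.42. All these sums include markers not above background and add up probe sets that bind unequally. Dcn, Sparc, Lox and Bgn, which differed most among stromal markers, were not above background in every array. The same held for Ly6g, Lcn2 and Retnlg among neutrophil markers. Dendritic cell and macrophage markers summed to 15.31, 15.33 and 15.30, where the genes of highest value weigh most, but single genes differed. Of the 16 detected, 5 were lowest in replicate 3, namely Csf2ra, the chemokine receptor gene Ccr7 (10.15, 10.50 and 9.74) and the macrophage markers Mrc1, Csf1r and Adgre1. Mrc1, the mannose receptor gene, had 11.10, 10.91 and 10.67, Csf1r had 11.03, 10.94 and 10.77, and Adgre1 had 10.25, 10.18 and 10.04. Another 4 were highest there, namely the class II genes H2-Ab1 and H2-Eb1 and the transcription factor genes Irf4 and Irf8 (Irf8 10.06, 10.17 and 10.33). None of the 8 detected hypoxia genes that varied was lowest in replicate 3, where Vegfa had 10.09 against 9.07 in replicate 1. Dividing cells and lymphocytes are known to use Slc7a5 and Slc1a5 heavily, and the part of these groups in the transporter differences was not tested.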

How the data were processed

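Total RNA of 3 BMDC samples, 150 ng each, was labelled with biotin and measured on 1 array per sample, per the labels' protocols. The authors deposited log2 expression values, for which the submitters' processing notes name RMA. As a method, RMA corrects background, quantile normalizes arrays and summarizes probes by median polish. For that step, software, version and build are not given in the sources used here. The array medians were 5.91, 5.91 and 5.91. In 44.8% of the 35556 probe sets the 3 deposited values were identical, so an SD near 0 is no measure of precision. Median polish over 3 arrays can also hide a change in 1 of them.

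The platform annotation pairs 21789 probe sets with 1 gene and 1621 with several, which were not used, and does not list 12146. All 64 transporter symbols matched a current RefSeq symbol by Entrez identifier. A span is the highest minus the lowest array. Genes were named by rule: every transporter, fixed genes of each pathway list and the widest spans within it. The transporters and lists were chosen with earlier results of these data known. With 1 group, no test between groups was possible. Calculations used Python 3.11.15 with pandas 2.3.3 and were tested on simulated data. Alternatives changed the limit, took the call from the mean, averaged probe sets, centred arrays, dropped the filter, moved the span threshold or left out an array.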

Additional observations from a re-analysis of the deposited data

How the results depend on the processing

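The number of transporters above background was 25 with the 99th percentile limit, 45 with the 90th and 36 or 37 under the other alternatives. The number spanning more than 0.5 log2 units was 4 under each other limit, call, probe set rule, centring and filter tried, 5 with a threshold of 0.25 and 1 with a threshold of 1, and it ranged from 0 to 4 when an array was left out. The median deviation of the transporters, 0 in replicates 1 and 3 as deposited, became 0.0024 and -0.011 with the 99th percentile limit and -0.0073 and 0.011 with arrays centred on their genes above background. Centring left 10 of the 12 transporters lowest in replicate 3. The number of genes above background in each pathway list stayed within 1.5 times its value under every alternative run. No paired analysis was possible because the samples form 1 group. The number of arrays limits every value, and genes near the background limit cannot be called firmly.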
